A study of Arabidopsis thaliana with 4 samples.

Results

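The moderate fallers are 81 of the 22810 probe sets of the Affymetrix ATH1 array. A probe set is a group of short oligonucleotides that together measure 1 transcript or a few alike. Members were chosen from the measured values themselves: at least 2 arrays had a log2 level of 4 or more, and the lowest mock value exceeded the highest value after dexamethasone (DEX) by at least 1.5-fold and by less than 2-fold, a distance called the gap here. Of the 19883 probe sets that met the level, 87 (0.438%) had such a gap, while 19.8% were lower after DEX without overlap of the groups by any margin, and 6 were then left out by gene symbol: SWEET4, SWEET11, DFR, APL3, TBL26 and EXPB3. Exclusion went by symbol, so 2 members of the UDP-glycosyltransferase family that are listed only by locus number remained. By the same numeric criteria 126 probe sets were higher after DEX. Because the contrast of DEX with mock chose the members, their levels and differences are given as a description, without a test.

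The arrays come from a study of ORS1, a NAC-family transcription factor of Arabidopsis thaliana that promotes leaf senescence. All plants were 46-day-old transgenic plants in the C24 background with an inducible ORS1 overexpression construct, and whole rosettes were taken 5 h after spraying. The DEX group (2 arrays) received 30 µM DEX, which switches the construct on, and the mock group (2 arrays) received 0.05% ethanol. Every plant carried the construct and none lacked it, so a response to DEX itself cannot be told apart from a response to ORS1. The labels name neither the promoter nor the number of lines or of plants behind an array, and they call the arrays biological replicates. No probe set was paired with ORS1, so its own level was not analysed here.

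Leaf senescence is the ordered ageing of a leaf, in which chlorophyll, proteins and nucleic acids are broken down and their nitrogen, phosphorus and sugars are exported. NAC factors bind promoters and turn on large parts of this programme, and genes of growth and photosynthesis generally decline as it advances. Several hormones feed into it, jasmonate among them, a hormone made from membrane lipids that acts through MYC-type transcription factors. The label of rosette leaves was checked against marker genes. The 7 tested photosynthesis markers had mean log2 levels of 11.56 to 13.37, where the array maxima were 13.4 to 13.6. Their median difference between DEX and mock was -0.06. Of the root markers 2 were tested, EXPA7 at 5.90 and PYK10 at 9.38, the latter above the upper quartile of 8.26 over all tested probe sets. The 3 guard cell markers tested were at 5.18 to 6.35. None of the floral, pollen and vascular markers was tested here. A list gene counted as tested only with a probe set paired with it alone, and 8098 of the 19883 tested probe sets were unlisted. A marker not tested is therefore not shown to be low.

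Of the 81 members, 26 were paired with 1 gene, 3 with 2 genes each and 52 with none in the annotation used here. The listed share was 35.8%, against 59.3% of all tested probe sets, so most of the group cannot be named. The 6 left out by symbol were all listed, and with them the share was 35 of 87 (40.2%). Members ended in s_at or x_at, the suffixes of probe sets that match several transcripts, in 8 of 81 cases (9.88%), against 3.85% of all tested. The difference in means was between -0.67 and -1.44 log2 units, with a median of -0.91, where the median over all tested probe sets was -0.01. As folds of mock over DEX the means differed by 1.59 to 2.71, with a median of 1.87. For 26 of the 81 the means differed by more than 2-fold, although the gap between the nearest arrays was under 2-fold for every member by the rule. In whole rosettes, fewer cells of a type and less RNA per cell cannot be told apart.

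The members spanned a wide range of expression, but fewer of them lay at its low end than among all tested probe sets. Mean log2 levels ran from 4.78 to 11.90 with a median of 7.39, against 6.94 over all tested probe sets. The lower quartile was 6.44 in the members and 5.44 in all tested, and the upper quartile 8.55 and 8.26. A mean level under 6 was found for 14 of the 81, and 5 had one above 10. GCRMA, the authors' normalization, shrinks differences most near the floor of the scale, and no member had a value under 4 on any array.

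**Figure D1:**
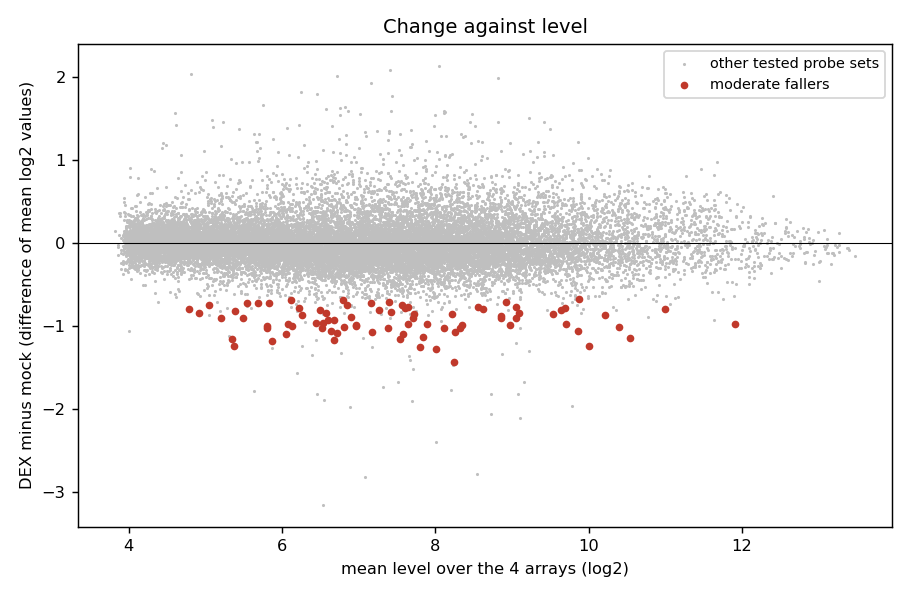
Difference between DEX and mock (vertical axis, difference of mean log2 values, n = 2 arrays per group) against the mean log2 level over the 4 arrays (horizontal axis) for all 19883 tested probe sets. The 81 moderate fallers (red) lie between -0.67 and -1.44 at mean levels from 4.78 to 11.90; a few grey probe sets lie below them.

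In limma, a linear model with variances shared across probe sets, 8 of the 81 members had a Benjamini-Hochberg adjusted p under 0.05, against 0.201% of all 19883 tested probe sets called lower. Nothing is read from this count, since the same contrast chose the members. Named genes among the 8 were AT2G21560, AT1G55760 and AT4G23000, and the other 5 were unlisted probe sets. The count also changed when an array was left out, but its group is then 1 array, which is assumed to vary like the other pair. The members' median difference was -0.866 without DEX replicate 1 and -0.940 without DEX replicate 2. It was -0.824 without mock replicate 1 and -0.999 without mock replicate 2. All values below are therefore given array by array, replicate 1 before replicate 2, in log2 units, and a level is not compared between genes. A difference is the DEX mean minus the mock mean and is followed by its standard error (SE) from the limma fit.

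Of the 26 named genes, 7 belong to regulation and signalling. MYC3 encodes a basic helix-loop-helix transcription factor that, with its relatives MYC2 and MYC4, carries out much of the response to jasmonate and also regulates glucosinolate synthesis. Its level was 7.28 and 7.25 after DEX and 8.16 and 7.90 after mock. Both DEX arrays were alike and the mock arrays lay above them, with a gap of 0.62 and a difference of -0.76 ± 0.18 (SE), or 1.7-fold. MYC4, which lies outside the group because its gap was larger, stood at 6.59 and 6.49 after DEX and 7.95 and 7.64 after mock, a difference of -1.26 ± 0.18 (SE).

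FHL is a small protein that, like its relative FHY1, helps the light receptor phytochrome A to enter the nucleus. Its values were 4.81 and 5.26 after DEX and 5.99 and 5.89 after mock. The mock arrays agreed within 0.098, while the DEX arrays were 0.45 apart, so the difference of -0.91 ± 0.17 (SE) shrinks to -0.68 when DEX replicate 1 is left out. ATL5, a RING-type zinc finger protein of a family of ubiquitin ligases, had the same shape. Values of 6.25 and 6.70 were measured after DEX, against 7.47 and 7.45 after mock. DEX replicate 1 was again the lower of its pair, and the mock arrays were nearly equal.

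AT2G18890, a member of the protein kinase family, had the tightest groups among the regulators. Both pairs were narrow, with 6.87 ± 0.033 after DEX and 7.67 ± 0.019 after mock (mean ± SD, n = 2). The difference was -0.80 ± 0.17 (SE). AT1G55760 encodes a protein with a BTB/POZ domain, a fold through which proteins pair and which often brings substrates to ubiquitin ligases. It had the largest gap of the 7, 0.86, with 5.64 and 5.61 after DEX and 6.76 and 6.50 after mock.

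Closest to the lower limit of the rule were 2 further regulators. AT5G05790 encodes a MYB-related protein, a class of DNA-binding factors. Its gap of 0.59 was the smallest of all 81, from 5.85 and 5.69 after DEX and 6.47 and 6.44 after mock. AT5G53420 carries a CCT motif, a domain found in CONSTANS and in clock proteins. It read 8.14 and 8.30 after DEX and 9.12 and 8.91 after mock. Its difference was -0.80 ± 0.20 (SE), or 1.74-fold.

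**Figure D2:**
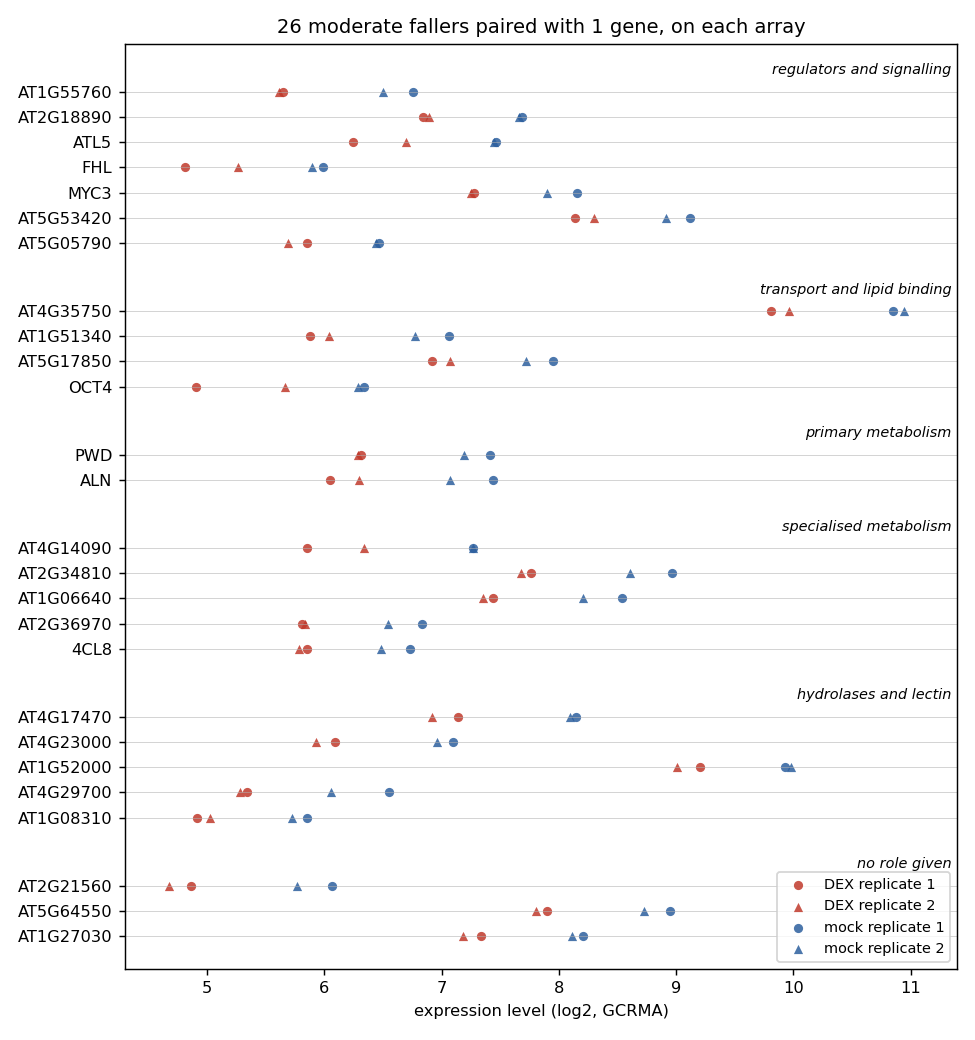
Log2 expression level (horizontal axis) on each of the 4 arrays for the 26 members paired with 1 gene, ordered by role and, within a role, by gap; red points are DEX arrays and blue points mock arrays, circles replicate 1 and triangles replicate 2. In every row both red points lie left of both blue points, as the rule required, and OCT4, AT4G14090, ATL5 and FHL have the widest pair of red points.

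Transport and lipid binding accounted for 4 genes. AT1G51340 is a carrier of the MATE family, which exports organic acids and other small molecules. It stood at 5.88 and 6.04 after DEX and 7.06 and 6.78 after mock, a difference of -0.96 ± 0.17 (SE). AT5G17850 belongs to the cation/calcium exchangers, membrane proteins that move calcium and other cations against protons or sodium. With 6.92 and 7.07 after DEX and 7.95 and 7.72 after mock it was 1.79-fold lower in the DEX means, and the pairs were similarly wide.

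OCT4, an organic cation/carnitine transporter, had the least even DEX pair of all 81 members. The DEX arrays read 4.91 and 5.67 and the mock arrays 6.34 and 6.29. Its gap was therefore 0.62 while its difference in means was -1.03. Without DEX replicate 1 the difference was -0.65 and without DEX replicate 2 it was -1.41, and it was the 1 member that an array moved by over 1.5 times. AT4G35750 is related to SEC14, a yeast protein that binds and transfers phospholipids. It stood at 9.81 and 9.96 after DEX and 10.85 and 10.94 after mock. It was also 1 of 2 named members on which mock replicate 2 lay above mock replicate 1.

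Of the named genes 2 act in primary metabolism. ALN encodes allantoinase, an enzyme of purine breakdown that opens the ring of allantoin and so helps to recover the nitrogen of nucleic acids. It read 6.05 and 6.29 after DEX and 7.44 and 7.07 after mock, and the means differed 2.13-fold. PWD (AT4G24450) belongs to the glucan and phosphoglucan water dikinases, enzymes that place phosphate on starch-like glucans. RefSeq gives the symbol PWD to a second gene as well, and the older name of AT4G24450 is ATGWD2. The DEX arrays were almost equal at 6.31 and 6.29, and the mock arrays were 7.41 and 7.19, a gap of 0.88. APL3, a starch synthesis gene left out by symbol, had a similar gap of 0.92 with 5.14 and 5.32 after DEX and 6.75 and 6.24 after mock.

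Specialised metabolism held 5 genes. AT4G14090 encodes the anthocyanidin glucosyltransferase that adds a glucose to anthocyanins late in their synthesis. Its mock arrays were the most alike of any member, 7.27 and 7.27, and its DEX arrays stood at 5.85 and 6.34. The difference of -1.17 ± 0.19 (SE), or 2.25-fold, was the largest among the 26 named genes, and the gap was 0.93. DFR, the reductase that acts upstream in the same branch and was left out by symbol, read 6.50 and 6.48 after DEX and 7.80 and 7.47 after mock.

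AT2G36970, a UDP-glycosyltransferase of unsettled substrate, was at 5.81 and 5.84 after DEX and 6.84 and 6.54 after mock. 4CL8 is related to the ligases that activate coumaric acid with coenzyme A at the entry to lignin and flavonoid synthesis. It read 5.85 and 5.79 after DEX and 6.73 and 6.49 after mock. These 2 genes had nearly equal DEX arrays and a mock replicate 1 above mock replicate 2, with differences of -0.86 and -0.79.

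AT2G34810 belongs to the berberine bridge enzyme-like family of flavin-dependent oxidases, many of which act on sugars or specialised metabolites. Its level was 7.76 and 7.68 after DEX and 8.96 and 8.61 after mock, a 2.1-fold difference in means. AT1G06640 is an oxygenase that depends on 2-oxoglutarate and iron, a family that includes many enzymes of hormone and flavonoid synthesis. With 7.44 and 7.36 after DEX and 8.54 and 8.21 after mock it behaved on the arrays much like AT2G34810. In both genes the mock pair was wider than the DEX pair.

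Hydrolases and a lectin made up 5 genes. AT4G17470, a palmitoyl-protein thioesterase family member, had the largest gap of the named genes, 0.96. It read 7.14 and 6.92 after DEX and 8.15 and 8.10 after mock, with the mock arrays within 0.052 of each other. AT4G23000, a phosphoesterase of the calcineurin-like type, stood at 6.09 and 5.93 and 7.10 and 6.96, in the same order of groups. Its difference was -1.02 ± 0.16 (SE). AT1G52000 encodes a jacalin-related lectin, a sugar-binding protein of a family in which several members respond to wounding and pathogens. DEX values of 9.20 and 9.01 lay under mock values of 9.93 and 9.98, and this was the other named gene with mock replicate 2 above mock replicate 1.

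AT4G29700 resembles alkaline phosphatases and nucleotide pyrophosphatases. Its DEX arrays agreed at 5.34 and 5.28, whereas the mock arrays, 6.55 and 6.05, were 0.50 apart, the widest mock pair of the named genes. AT1G08310, an alpha/beta hydrolase, read 4.92 and 5.02 after DEX and 5.85 and 5.72 after mock. A further 3 loci are named with no role given here. AT2G21560 read 4.86 and 4.67 after DEX and 6.07 and 5.77 after mock, a difference of -1.15 ± 0.15 (SE). AT5G64550 stood at 7.90 and 7.81 and 8.95 and 8.72, and AT1G27030 at 7.33 and 7.18 and 8.20 and 8.11, DEX before mock.

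By role, differences ran from -0.68 (AT5G05790) to -0.99 among 6 of the 7 regulators, with AT1G55760 beyond them, from -0.84 to -1.03 among the 4 genes of transport and lipid binding, and were -1.01 and -1.09 for the 2 genes of primary metabolism. They ran from -0.79 to -1.17 in specialised metabolism and from -0.82 to -1.10 among the hydrolases and the lectin. The 26 genes as a whole had a median difference of -0.98. They lay on all 5 nuclear chromosomes, with 6, 4, 2, 7 and 7 genes on chromosomes 1 to 5. None were neighbours: the closest pair, AT1G51340 and AT1G52000, was 75 protein-coding genes apart.

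The 55 members without a single gene are known only by probe set. The 52 unlisted ones had differences of -0.67 to -1.44, with a median of -0.90, and mean levels of 4.78 to 11.90. The 2 with the largest gaps were 266827_at and 259609_at. The former read 5.47 and 5.54 after DEX and 6.67 and 6.53 after mock, a gap of 0.99 with even pairs. The latter read 7.47 and 7.58 after DEX and 9.37 and 8.56 after mock, so that its difference of -1.44 ± 0.27 (SE), the largest of all 81, came with the widest mock pair of the group. The 3 probe sets paired with 2 genes each had differences of -0.77 to -1.24, and signal from their genes cannot be separated.

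At the limits of the rule the values ran on without a break. The 3 named genes just below the lower limit were AT3G23090, AT5G45650 and AT1G17830, with gaps of 0.582, 0.576 and 0.575, and the 3 just above were AT5G05790, AT5G53420 and OCT4, with 0.588, 0.61 and 0.623. At the upper end AT4G17470, AT4G14090 and AT2G21560 had gaps of 0.96, 0.93 and 0.91. Just beyond it lay AT3G55940 and AT1G68600, both at 1.01, and scpl48, which passed the limit by less than either. Members and their neighbours outside the limits thus differed by a few hundredths of a log2 unit.

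The direction of the difference inside each pair of arrays was not part of the rule. Mock replicate 1 lay above mock replicate 2 in 67 of the 81 members (82.7%), against 54.3% of all tested probe sets. Of the named genes 24 of 26 did so, and of the unlisted 40 of 52. The DEX pair showed no such lean, with DEX replicate 2 above DEX replicate 1 in 43 of 81 members (53.1%) and in 48.9% of all tested. The median distance between the mock arrays was 0.22 in the members and 0.23 in all tested, and between the DEX arrays 0.10 and 0.12. The upper quartile of the mock distance was 0.35 in the members and 0.40 in all tested, and that of the DEX distance 0.19 and 0.21. A mock distance over 0.5 occurred in 9 members and a DEX distance over 0.4, a lower cut-off, in 7.

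**Figure D3:**
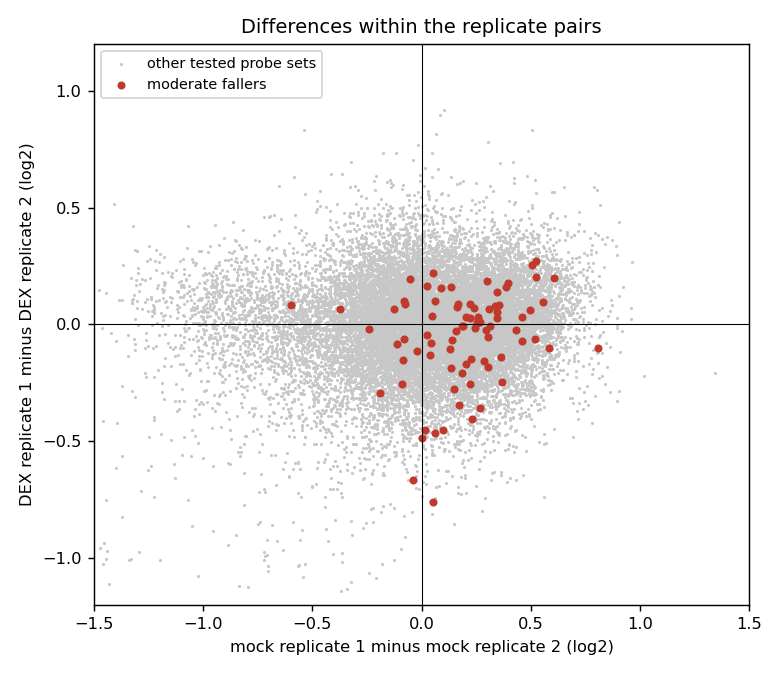
Difference between the mock arrays (horizontal axis, replicate 1 minus replicate 2, log2) and between the DEX arrays (vertical axis, likewise) for the 81 moderate fallers (red) and the other tested probe sets (grey); 31 grey probe sets lie outside the axes. Red points lie to the right of zero in 67 of 81 cases and are spread on both sides of the horizontal line.

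The mock arrays differed with gene length, which bears on these values. Across 11311 tested nuclear genes with a span in the RefSeq annotation, which are not independent replicates and share the 2 arrays, mock replicate 1 minus mock replicate 2 correlated with log2 span with Pearson's r = 0.534, and the DEX pair with r = -0.036. The 26 named members had a median span of 2430 bp against 2201 bp, and 15 of the 26 were longer than that median. With a smooth trend on length taken out of each array 23 of the 26 still met the limits and 3 had gaps below the lower limit. These 3 were OCT4 (0.42), AT1G52000 (0.53) and AT5G05790 (0.57). The median difference of the 26 went from -0.98 to -0.89, and mock replicate 1 then lay above mock replicate 2 in 17 of 26 genes rather than 24. How far other differences between the mock arrays enter the members' values was not tested.

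**Figure D4:**
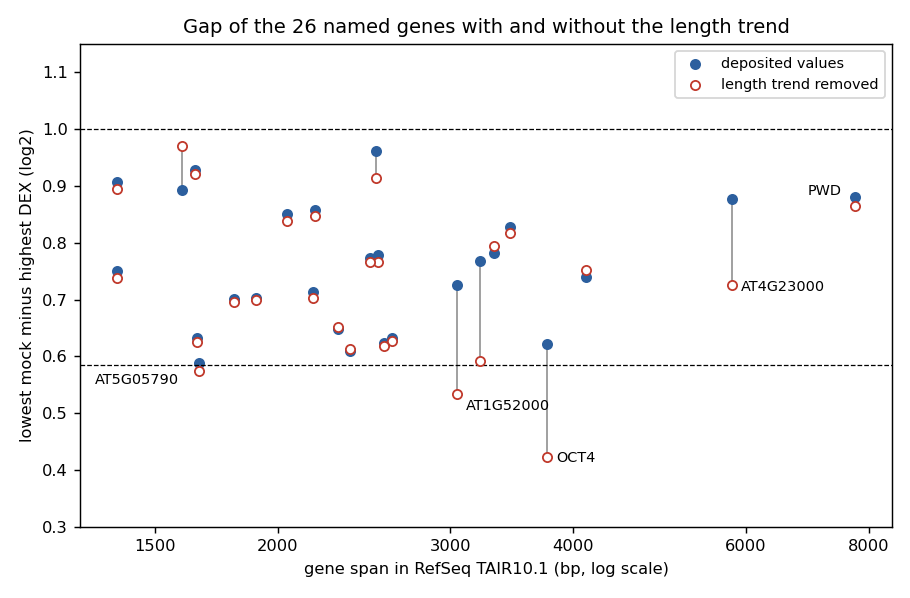
Gap between the lowest mock and the highest DEX value (vertical axis, log2) against gene span (horizontal axis, bp, log scale) for the 26 named members, from the deposited values (blue) and after a length trend was removed from each array (open red); dashed lines mark the limits of the rule. OCT4, AT1G52000 and AT5G05790 end below the lower line, and AT4G23000 goes from 0.88 to 0.72.

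Other genes of pathways that the members touch were read from lists that were not drawn from the group. A call here is a limma adjusted p under 0.05 over all tested probe sets, where 0.201% were called lower and 0.246% higher. Of 26 genes of jasmonate synthesis and response 4 were tested, MYC3 among them, and 1 was called lower, MYC4. Both are genes that the rule itself picked or left out, and the other 2 were JMT, a jasmonate methyltransferase, at -0.18 ± 0.12 (SE) and the defensin gene PDF1.2, at 0.36 ± 0.23. Of 31 glucosinolate genes 6 were tested, again with MYC3 and MYC4. The other 4 had a median difference of -0.35, while the median of all tested was -0.01. BCAT4, an aminotransferase at the start of methionine-derived glucosinolate synthesis, read 11.47 and 11.32 after DEX and 12.04 and 11.92 after mock, and UGT74B1, a glucosyltransferase near its end, 10.25 and 10.16 and 10.82 and 10.65. The groups overlapped for the glucosinolate transporters GTR1, at -0.17 ± 0.25 (SE), and GTR2, at 0.01 ± 0.23. None of these 4 passed (limma adjusted p of 0.3 for BCAT4 to 0.998 for GTR2).

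Of 24 flavonoid and anthocyanin entries 3 were tested and 1, DFR, was called lower. UGT78D1 and UGT78D2, both flavonoid glycosyltransferases, had differences of 0.31 ± 0.17 and -0.09 ± 0.18 (SE) and did not pass. Starch and sugar metabolism had 4 of 37 tested, 1 called lower (APL3, left out by symbol) and a median of -0.44 over the other 3. No gene was called in the lists for the circadian clock (1 of 26 tested, -0.28), gibberellin and brassinosteroid (4 of 32, median -0.58), auxin (7 of 36, 0.03), nitrogen and sulfur (1 of 28, -0.24), the cell cycle (2 of 21, 0.14) or drought and cold (3 of 27, -0.51). None was called among the leaf, guard cell and root markers either, whose medians were -0.06, 0.03 and 0.02, and of 21 phosphate starvation genes 0 were tested. A gene counted as tested only with a probe set paired with it alone, so a gene not tested need not be low. Few genes of each list were tested, so the medians rest on 1 to 7 values.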

How the data were processed

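The deposited table holds log2 expression values made by the authors with GCRMA, per the submitters' processing notes, with 1 value per probe set and array. Which version and settings were used is not stated, and the log2 scale was taken from the values, which have array medians of 6.51 to 6.55. No further normalization was applied. Of 22810 probe sets, 64 Affymetrix controls and 2863 with fewer than 2 arrays at 4 or more were left out. The remaining 19883 were fitted in R 4.3.3 with limma 3.58.1 (lmFit, eBayes with an intensity trend), DEX against mock, two-sided, with Benjamini-Hochberg adjustment over all of them, tried beforehand on simulated data. The 2 arrays per group leave 2 residual degrees of freedom and limit the precision. The p-values and SEs rest on the spread between these arrays, with each variance drawn towards that of probe sets of like level. The number of plants behind an array is not stated.

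Names came from the platform annotation, updated through RefSeq TAIR10.1; no coordinates are given, since the table names no build. The members and lists were chosen with earlier results of these data known. Any member with 1 gene could be named, with values on each array where a role is known; beyond those, the 2 unlisted members of largest gap and the 3 genes on each side of each limit were named. Of 386 entries in 16 gene lists 47 were tested; the symbol CHI, which RefSeq gives to a chitinase, was left out of the flavonoid list. A gene with several probe sets entered by its brightest. Roles are background knowledge. Alternatives changed the filter, the normalization, the length trend (a natural spline with 3 degrees of freedom on log2 span), the variance model, the block and the arrays used.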

Additional observations from a re-analysis of the deposited data

How the results depend on the processing

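Against 81 members, the rule gave 83 after quantile normalization, 87 once array medians were made equal and 81 with no filter or a level of 5, and 29 with the length trend removed, where only genes with a span could enter and 23 of the 26 members with a span were kept. Leaving out 1 array gave 127 to 466 probe sets, since a gap over fewer arrays is easier to meet, with 50 to 80 of the 81 kept. The median difference of the members was -0.824 to -0.999 over its alternatives, and every member that could be computed (26 with the length trend removed, otherwise 81) stayed negative, which the rule fixes when an array is left out. The count with a limma adjusted p under 0.05 was far less steady. Against 8 members among 40 probe sets called lower, it was 2 among 28 with no filter and 16 among 50 with equal array medians. Robust empirical Bayes gave 25 members among 59 probe sets called lower, and quantile normalization 9 among 40. An adjusted p under 0.1 was met by 46 members among 81 probe sets called lower. Without an intensity trend the count was 0 members among 24 probe sets called lower, and 81 members had an unadjusted p under 0.05. With an unmoderated variance 0 probe sets were called lower. There 67 members had an unadjusted p under 0.05, among 671 tested probe sets lower at that p. The same contrast chose the members, so nothing is read from these unadjusted counts. Leaving out 1 array gave 10 to 80. AT4G23000 lost its call without DEX replicate 2 (adjusted p = 0.139), 260144_at without DEX replicate 1 (adjusted p = 0.278) and mock replicate 1 (0.0513), and 245538_at and 245758_at without mock replicate 1 (0.0653 and 0.103). With the replicate number as a block the count was 76 members among 237 probe sets called lower. The labels do not say that the numbers mark a shared batch. Over the probe sets the differences inside the DEX and mock pairs correlated with r = 0.108. With 2 pairs this value cannot show whether the replicate numbers mark a batch, which was not tested. The cause of these changes was not tested beyond what the construction of each alternative shows.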

Other observations

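Among genes outside the group, the 3 gibberellin receptors GID1A, GID1B and GID1C were all lower on both DEX arrays than on both mock arrays, with gaps under the limit of the rule; they were picked out after their values were seen. GID1A read 7.99 and 8.23 after DEX and 8.79 and 8.56 after mock, GID1B 7.10 and 6.95 and 7.93 and 7.44, and GID1C 6.36 and 6.21 and 7.12 and 6.63. Their differences were -0.57 ± 0.20, -0.66 ± 0.21 and -0.59 ± 0.20 (SE). None passed in limma (adjusted p = 0.428, 0.347 and 0.386), and 19.8% of all tested probe sets were lower after DEX without overlap of the groups.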
